A study of Mus musculus with 4 samples.

Results

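The B cell receptor complex and its proximal signalling genes were followed in B cells of Peyer's patches, which are lymphoid tissue of the gut wall. The group held 9 listed genes (Cd79a, Cd79b, Cd22, Cd72, Ms4a1, Syk, Lyn, Btk and Blnk) of 31053 in the deposited matrices, and all 9 were found. They were read by the authors' cluster number, 0 to 6, and by colonization with segmented filamentous bacteria (SFB), which live in the gut bound to epithelial cells. The SFB-positive group had 2 libraries and the SFB-negative group had 2 libraries. Both groups were female wild-type Taconic mice, CD45+ (white blood) cells were sorted from their patches, and 5 mice per group were pooled. Age is not given in the labels, and nothing in them says that replicates 1 and 2 of a group came from separate pools of mice. The p-values thus measure at most the spread between these libraries, which may be technical. Droplet 3′ RNA counts of unique molecules (UMIs) were used, and levels are counts per 1000000 gene UMIs (CPM) of a class of cells in a library.

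The B cell receptor pairs a membrane antibody with the CD79A and CD79B chains, whose cytoplasmic tails are phosphorylated by the Src-family kinase LYN when antigen binds. The kinase SYK docks on these tails, the adaptor BLNK gathers the downstream enzymes, and BTK activates phospholipase C and with it calcium signalling. CD22 and CD72 are inhibitory co-receptors that recruit the phosphatase SHP-1, and MS4A1 (CD20) is a B cell membrane protein associated with the receptor. In Peyer's patches, gut antigens keep germinal centres active, where B cells mutate their antibody genes and switch class, to IgA above all.

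The genes lie on GRCm38 (mm10) at the following GENCODE positions. Cd79a, on the plus strand of chromosome 7, spans 24897381 to 24902197, and Cd22, on the minus strand of chromosome 7, spans 30865402 to 30880342. Cd79b lies on the minus strand of chromosome 11 from 106311341 to 106314762. Cd72 lies on the minus strand of chromosome 4 from 43446462 to 43454628, and Lyn on the plus strand of that chromosome from 3678115 to 3813122. Ms4a1 (11249675 to 11266241) and Blnk (40928927 to 40994535) are on the minus strand of chromosome 19. Syk is on the plus strand of chromosome 13 from 52583173 to 52648792 and Btk on the minus strand of chromosome X from 134542336 to 134583570. All 9 are protein-coding, and a 3′ count covers mainly the last exon of each.

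RefSeq promoter windows (GRCm38.p6, 250 bases before the annotated start) matched 6 of the 9 genes. The start is that of RefSeq, and the windows of Cd22, Btk, Blnk and Syk lie inside the GENCODE gene spans given above. The windows of Cd72, Cd22 and Btk, which were all lower in class-switched cells of cluster 4, are shown 5′ to 3′ on the gene's strand, without bases that GENCODE annotates as exon (Cd72 at chr4:43454629-43454876, Cd22 at chr7:30879029-30879176 and Btk at chrX:134583141-134583390, all on the minus strand). Capitals mark matches to the motifs searched.
Cd72: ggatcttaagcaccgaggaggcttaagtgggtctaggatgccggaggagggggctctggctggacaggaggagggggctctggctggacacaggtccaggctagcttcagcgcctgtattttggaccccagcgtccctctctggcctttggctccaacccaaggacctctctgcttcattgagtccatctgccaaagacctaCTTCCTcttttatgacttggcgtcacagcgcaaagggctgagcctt
Cd22: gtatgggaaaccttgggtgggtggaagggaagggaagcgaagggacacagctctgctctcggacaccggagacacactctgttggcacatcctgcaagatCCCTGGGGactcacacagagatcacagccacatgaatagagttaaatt
Btk: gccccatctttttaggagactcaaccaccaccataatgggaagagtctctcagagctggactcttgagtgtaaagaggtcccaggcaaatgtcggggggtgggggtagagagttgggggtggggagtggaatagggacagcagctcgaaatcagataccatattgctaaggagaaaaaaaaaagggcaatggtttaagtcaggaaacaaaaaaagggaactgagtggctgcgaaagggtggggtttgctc
The motifs searched on both strands were an EBF-type CCCNNGGG, an E-box CAGGTG, an Ets-type AGGAAG and an octamer ATGCAAAT. They occur in 11.8%, 17.2%, 29.5% and 1.60% of 32851 promoter windows of the same length, and matches of different motifs did not overlap in the 6 genes. The Cd72 window held an Ets-type match 48 bases before the start and the Cd22 window an EBF-type match 48 bases before the start. The Cd22 window also held an E-box 245 bases before the start, outside the stretch shown, and the Btk window held none of the 4 motifs. Among the windows not shown, that of Blnk held an octamer at 130, an E-box at 160 and an Ets-type match at 202 bases before the start. Blnk was also lower in class-switched cells of cluster 4. The Cd79a window held an E-box at 154 and an Ets-type match at 55 bases before the start, and the Syk windows E-boxes at 200 and 144 bases. These matches describe letters in a window and are not known binding sites.

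The deposited cell table placed 22569 cells in 7 numbered clusters without cell type names. It held 3408 and 7380 cells of the SFB-positive libraries and 4050 and 7731 of the SFB-negative libraries (replicates 1 and 2). Replicate number marked a technical difference, since the median UMIs per table cell were 1280 and 1267 in the replicate 1 libraries, against 5863.5 (SFB-positive) and 3252 (SFB-negative) in the replicate 2 libraries, and the file headers name Cell Ranger 6.0.0 for replicate 1 and 7.0.0 for replicate 2. The highest number of genes in a table cell was 2993 and 2980 in replicate 1, and 5991 and 3999 in replicate 2. Libraries of the same replicate number shared 30 and 40 cell barcodes, of which 13 and 13 were in the table, and other pairs shared at most 1. Checked against marker lists, clusters 0 and 1 were naive-like, cluster 3 germinal-centre-like, cluster 4 memory-like and cluster 6 plasma-like, while cluster 2 was not named. Cluster 5 was not named either, but its 11 germinal-centre-like markers stood at 3461 (SFB-positive) and 2733 CPM (SFB-negative) in replicate 2. Cluster 3 of these libraries had 3847 and 2718 CPM. The naive-like markers were at 960 and 737 CPM in cluster 5, against 371 and 411 CPM in cluster 3. Cluster 4 also held naive-like markers, at 1256 to 3173 CPM, against 1968 to 4772 CPM in cluster 0. Cluster 5 held 209 and 258 cells in the replicate 2 libraries, but 0 and 1 in the replicate 1 libraries, so its levels are given for replicate 2 alone. T cells outside the table (337 and 1379 in the SFB-positive libraries, 321 and 1198 in the SFB-negative libraries) served as cells that should lack the B cell genes. Levels between clusters are descriptions without a test, because the clusters were made from all genes of the same cells. The 3′ counts are compared here between cells and not between genes. CPM totals include antibody chain genes, so a lower level in the plasma-like cluster 6 need not mean less RNA of a gene per cell.

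The 2 signalling chains of the receptor were not spread alike over the clusters. Cd79a stood at 3713 and 2035 CPM in cluster 0 of the SFB-positive libraries and at 4000 and 2030 CPM in the SFB-negative libraries. In the germinal-centre-like cluster 3, Cd79a was at 1983 and 1339 CPM in SFB-positive libraries and at 2187 and 1495 CPM in SFB-negative libraries. Relative to cluster 0 of the same library, that is 0.534 to 0.736 of the level in all 4 libraries. Cd79b went the other way: it was at 1788 and 1072 CPM in cluster 3 of the SFB-positive libraries and at 2231 and 997 CPM in the SFB-negative libraries. In cluster 0, Cd79b was at 1383 and 621 CPM in SFB-positive libraries and at 1462 and 565 CPM in SFB-negative libraries. Cluster 3 therefore held 1.29 to 1.77 times the Cd79b level of cluster 0, higher in all 4 libraries.

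The number of Cd79b UMIs per Cd79a UMI, in which library depth cancels out, showed this shift within each library. The ratio was 0.90 and 0.80 in cluster 3 of the SFB-positive libraries and 1.02 and 0.67 in the SFB-negative libraries. Cluster 0 had 0.37 and 0.31 in the SFB-positive libraries and 0.37 and 0.28 in the SFB-negative libraries. The ranges of these clusters did not overlap, and clusters 1, 2 and 4 stayed between 0.28 and 0.45. Cluster 5 had ratios of 0.83 in SFB-positive replicate 2 and 0.71 in SFB-negative replicate 2, near those of cluster 3, but with a low Cd79a level of 547 and 647 CPM. The plasma-like cluster 6 was at the other end, with 0.19 and 0.10 in the SFB-positive libraries and 0.20 and 0.14 in the SFB-negative libraries. There Cd79a was at 2831 and 3137 CPM in SFB-positive libraries and at 2173 and 2341 CPM in SFB-negative libraries. That was below cluster 0 in replicate 1 (0.763 and 0.543 of its level, SFB-positive then SFB-negative) and above it in replicate 2 (1.54 and 1.15). Cd79b was at 528 and 317 CPM in SFB-positive libraries and at 439 and 338 CPM in SFB-negative libraries. In T cells the ratio was 0.47 and 0.42 in the SFB-positive libraries and 0.51 and 0.39 in the SFB-negative libraries, at a Cd79a level of 169 to 295 CPM. Whether loose RNA in the droplets contributes to the cluster ratios was not tested.

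**Figure D1:**
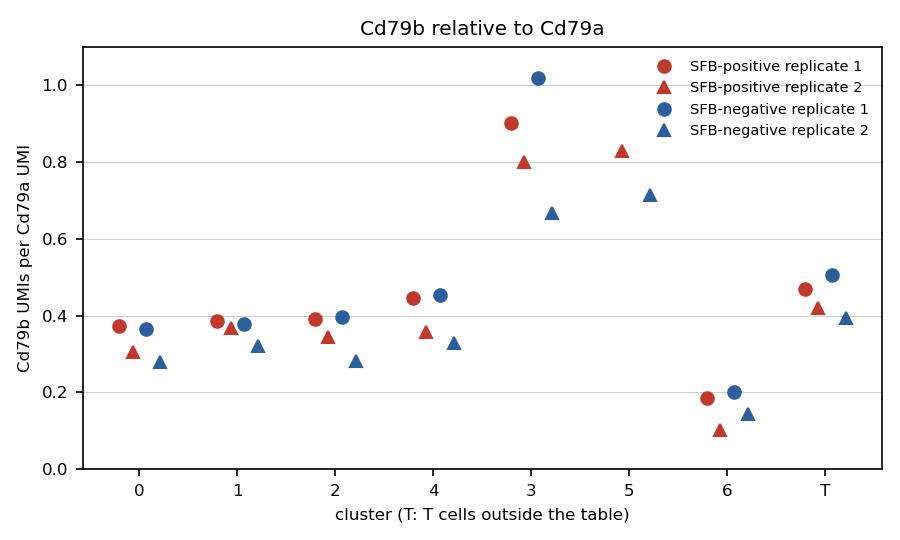
UMIs of Cd79b per UMI of Cd79a (vertical axis, linear from 0) by cluster and in T cells outside the table (horizontal axis), 1 point per library, SFB-positive in red and SFB-negative in blue, circles for replicate 1 and triangles for replicate 2. Cluster 3 lies between 0.67 and 1.02 and cluster 6 between 0.10 and 0.20, with clusters 0, 1, 2 and 4 between 0.28 and 0.45.

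After each cell was thinned to 1000 UMIs, a UMI of either Cd79 gene was found in 97.5% and 87.8% of cluster 3 cells in the SFB-positive libraries and in 97.3% and 90.3% in the SFB-negative libraries. T cells had 18.1% and 9.58% in the SFB-positive libraries and 20.5% and 15.3% in the SFB-negative libraries. At equal depth the CD79 genes were thus detected in most cluster 3 cells and in a minority of T cells. Cluster 5 had 59.5% of 126 cells in SFB-positive replicate 2 and 59.6% of 198 cells in SFB-negative replicate 2. Cluster 2 of these libraries had 73.5% and 76.5%. Cells with both Cd79a and Cd79b made up 69.5% and 46.1% of cluster 3 in the SFB-positive libraries and 73.5% and 47.1% in the SFB-negative libraries. In cluster 2 they made up 46.5% and 19.5% in the SFB-positive libraries and 46.6% and 18.9% in the SFB-negative libraries. Thinning evens out depth but not the difference between replicate numbers.

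The inhibitory co-receptors had distinct patterns. Cd72, a C-type lectin-like receptor, was high in clusters 0, 1, 2 and 4 and low in cluster 3. In cluster 4 Cd72 was at 636 and 288 CPM in the SFB-positive libraries and at 610 and 261 CPM in the SFB-negative libraries. In cluster 3 Cd72 was at 154 and 67.7 CPM in SFB-positive libraries and at 169 and 63.4 CPM in SFB-negative libraries. Cluster 3 held 0.249 to 0.319 of the Cd72 level of cluster 0, and its range did not overlap that of cluster 1, its neighbour in the order of levels. T cells had 71.4 and 29.9 CPM of Cd72 in the SFB-positive libraries and 83.5 and 49.5 CPM in the SFB-negative libraries, so the level of cluster 3 was 1.28 to 2.27 times that of T cells. With the plasma-like cluster left out, Cd72 varied most of the 9 genes over clusters. The SD of its log2 level lay at percentile 90.5 of 4920 genes compared, against 82.1 for Cd22 and 26.2 for Blnk. Variation with the plasma-like cluster included was not ranked.

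Cd22, a sialic acid-binding lectin, was at 219 and 118 CPM in cluster 0 of the SFB-positive libraries and at 233 and 97.6 CPM in the SFB-negative libraries. Its level was highest in cluster 5, with 403 CPM in SFB-positive replicate 2 and 293 CPM in SFB-negative replicate 2, which is 3.41 and 3.002 times cluster 0 of the same library. Cluster 5 cells were shallow, at a median of 1115 and 1288.5 UMIs. In the plasma-like cluster 6, Cd22 had 0 UMIs in both replicate 1 libraries, which allows up to 17.0 CPM in SFB-positive and 69.4 CPM in SFB-negative cells, and stood at 10.97 and 18.8 CPM in the replicate 2 libraries. T cells had 7.32 to 18.2 CPM, so Cd22 in cluster 6 was not told apart from the level in cells that should lack it.

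Ms4a1 resembled Cd79b. It was at 1261 and 906 CPM in cluster 3 of the SFB-positive libraries and at 1509 and 926 CPM in the SFB-negative libraries. In cluster 0 it was at 1013 and 418 CPM in SFB-positive libraries and at 1115 and 462 CPM in SFB-negative libraries. Cluster 3 was thus higher in all 4 libraries, at 1.24 to 2.17 times cluster 0. The plasma-like cluster 6 had 131 and 118 CPM in the SFB-positive libraries and 92.5 and 81.5 CPM in the SFB-negative libraries, close to the 57.8 to 97.7 CPM of T cells.

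**Figure D2:**
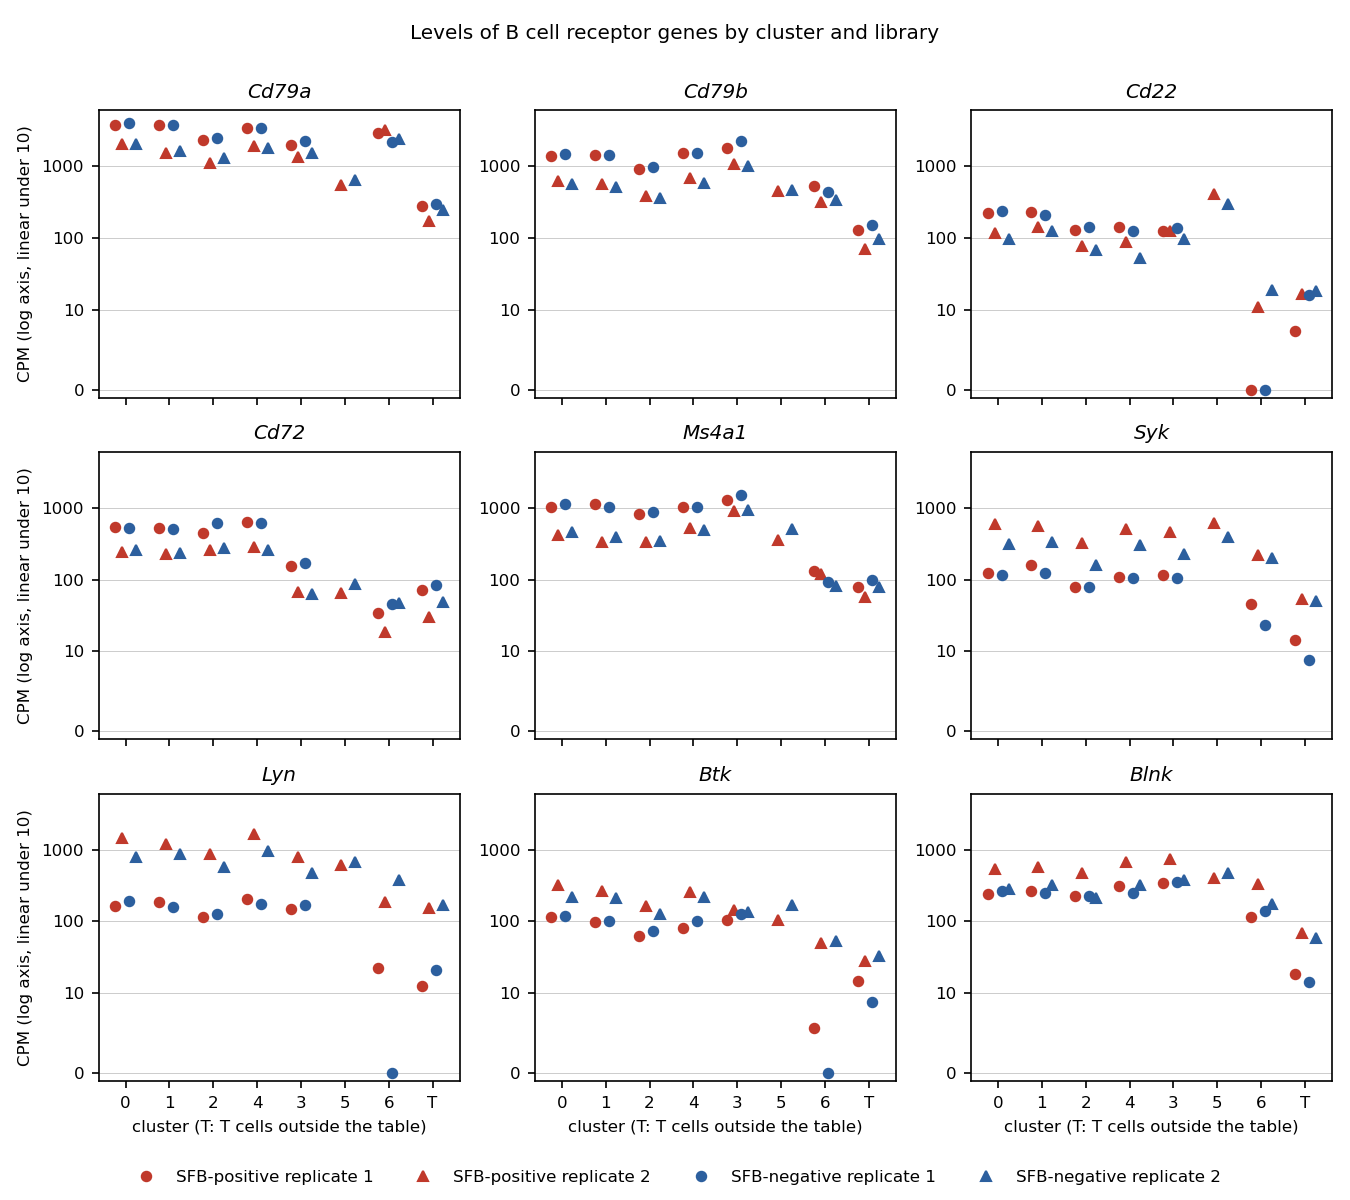
Level of each of the 9 genes in CPM (vertical axes, logarithmic and linear under 10) by cluster and in T cells outside the table (horizontal axes), 1 point per library, SFB-positive in red and SFB-negative in blue, circles for replicate 1 and triangles for replicate 2. Cd72 lies at 63.4 to 169 CPM in cluster 3, and Lyn and Syk are several-fold higher in both replicate 2 libraries.

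Levels of the kinases differed several-fold between replicate numbers. Lyn was at 163 and 1432 CPM in cluster 0 of the SFB-positive libraries and at 191 and 780 CPM in the SFB-negative libraries. Syk was at 125 and 589 CPM there in the SFB-positive libraries and at 116 and 316 CPM in the SFB-negative libraries. Over all table cells, the replicate 1 level was 0.142 and 0.231 of the replicate 2 level for Lyn, 0.245 and 0.386 for Syk, 0.418 and 0.565 for Btk and 0.443 and 0.861 for Blnk (SFB-positive, then SFB-negative). Cd79a, Cd79b, Cd72 and Ms4a1 were 1.97 to 2.41 times higher in replicate 1, and Cd22 1.55 and 1.99 times. Ratios between clusters were therefore taken within a library, though some of them still differed between replicate numbers. Orders of mean levels, and the SFB fit without a term for the replicate number, took both replicate numbers together.

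Among the clusters with 4 libraries Blnk had its highest mean level in cluster 3, at 337 and 732 CPM in the SFB-positive libraries and 355 and 381 CPM in the SFB-negative libraries. In cluster 0 Blnk was at 243 and 537 CPM in SFB-positive libraries and at 266 and 280 CPM in SFB-negative libraries. The ratio of the clusters was 1.33 to 1.39, close in all 4 libraries. Btk did not keep 1 direction between these clusters. Cluster 3 had 0.902 and 1.07 of the cluster 0 level of Btk in replicate 1 (SFB-positive, then SFB-negative) and 0.444 and 0.617 in replicate 2. Lyn in cluster 3 had 0.921 and 0.884 of its cluster 0 level in replicate 1 and 0.554 and 0.602 in replicate 2. In cluster 6 Lyn was at 22.7 and 184 CPM in the SFB-positive libraries and at 0 UMIs (up to 69.4 CPM) and 376 CPM in the SFB-negative libraries, and Btk at 5.67 and 50.3 CPM in the SFB-positive libraries and at 0 UMIs (up to 69.4 CPM) and 53.3 CPM in the SFB-negative libraries. The SFB-negative replicate 1 library held 6 cells of cluster 6. Blnk was at 0.468 to 0.627 of its cluster 0 level in cluster 6, with totals that include antibody chain genes.

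In the order of levels, most neighbouring clusters overlapped over the libraries. Ranges of neighbours were separate for Cd79a between clusters 3 and 5, for Cd22 between 5 and 1 and between 4 and 6, for Cd72 between 1 and 3 and between 5 and 6, for Ms4a1 between 5 and 6 and for Btk between 2 and 6. Among the clusters with 4 libraries, the order of mean levels began with clusters 0 and 1 for Cd79a and Btk, 3 and 4 for Cd79b and Ms4a1, 1 and 0 for Cd22 and Syk, 4 and 2 for Cd72, 4 and 0 for Lyn, and 3 and 4 for Blnk.

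Levels centred within each library were correlated over clusters 0 to 5, which gave 22 points from 4 libraries because cluster 5 had no usable replicate 1 cells. The points share library, depth and cell composition, so these values are descriptions. Cd79b ran closest to Ms4a1 among the 9 genes (Pearson r 0.919), and Lyn to Btk (0.868). Cd72 ran against Ms4a1 (−0.626), and the CD79 chains were weakly related to each other (0.258). Of all genes with a mean of at least 50 CPM, the ones most like Cd72 were Sub1 (0.986), Ly6d (0.978), a surface protein of the lymphocyte antigen 6 family, and Tpst2 (0.977). Those most like Cd79a were H2-DMa (0.955), which loads peptides on MHC class II, Fau (0.953) and Ndufa6 (0.944). For Cd79b they were Cnp (0.952), Rp9 and Coro1a, and for Ms4a1 they were Clic1 (0.931), Crip1 and Cd81 (0.910), a tetraspanin. For Cd22 they were Baiap2 (0.935), Trappc10 and Ccdc88c, and for Blnk Skap2 (0.909), Lims1 and Tap2. Syk was most like Crlf3 (0.905), Ero1lb and Aff4, Lyn like Ugcg (0.873), Sipa1l1 and Ctps2, and Btk like Asb3 (0.866), Actr1a and Ctps2.

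The comparison of SFB-positive with SFB-negative libraries asks how colonization alters the B cells. None of the 9 genes passed the edgeR quasi-likelihood test (adjusted p under 0.05) in all table cells or in clusters 0, 1, 2, 3 or 4. Without a term for the replicate number, the share of all genes called was 0% in each of the 6 classes, and 12, 7, 7, 12, 12 and 16 genes had an unadjusted p under 0.05. With the replicate block, a term for the replicate number, the shares were 3.61% in all table cells, 2.16% in cluster 0, 0.981% in cluster 1, 1.14% in cluster 2, 1.35% in cluster 3 and 1.53% in cluster 4, and still 0 of 9 genes were called. In all table cells, fewer cells of a type and less RNA per cell cannot be told apart. With the block, the spread was largely taken from all genes together, so these p-values do not measure the spread of each gene alone.

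Scaled values in cluster 3 show what the intervals allow. Syk had 116 and 415 scaled CPM in SFB-positive libraries, against 103 and 253 in SFB-negative libraries. The log2 difference was 0.61 ± 0.79 (SE) without the block (adjusted p = 1.00) and 0.51 ± 0.33 with it (95% interval −0.13 to 1.15, adjusted p = 0.704). Both replicate numbers had the higher Syk value in the SFB-positive library, by 0.17 and 0.71. Blnk had 339 and 665 scaled CPM in SFB-positive libraries, against 347 and 425 in SFB-negative libraries, with a log2 difference of 0.35 ± 0.34 with the block (interval −0.31 to 1.01, adjusted p = 0.858). Replicate 1 gave −0.03 and replicate 2 gave 0.65, so the direction rested on replicate 2. Cd79a had 1998 and 1216 scaled CPM in SFB-positive libraries, against 2140 and 1668 in SFB-negative libraries, a difference of −0.25 ± 0.44 with the block (interval −1.11 to 0.61). For Cd79b the difference was −0.20 ± 0.43, for Ms4a1 −0.24 ± 0.41, for Btk −0.21 ± 0.30, for Cd72 −0.12 ± 0.29, for Lyn 0.22 ± 0.34 and for Cd22 0.03 ± 0.30 with the block. Every 95% interval in cluster 3 included 0, and the intervals leave room for differences of either sign.

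The smallest block p among the 9 genes was that of Blnk in cluster 4. It stood at 310 and 666 CPM in the SFB-positive libraries and at 248 and 321 CPM in the SFB-negative libraries, so both replicate numbers were higher in the SFB-positive library. The log2 difference was 0.58 ± 0.74 without the block and 0.57 ± 0.28 with it (edgeR, unadjusted p = 0.0430, adjusted p = 0.483). Syk in cluster 1 differed by 0.46 ± 0.23 with the block (adjusted p = 0.630). Over the 6 classes, Syk was higher in the SFB-positive library in 6 of 6 within replicate 2 (0.48 to 0.71) and in 5 of 6 within replicate 1 (−0.006 to 0.34). Blnk was higher in 6 of 6 within replicate 2 (0.65 to 0.88) and in 3 of 6 within replicate 1 (−0.13 to 0.37). Cd79a, Cd79b, Cd72 and Ms4a1 were lower in the SFB-positive library of replicate 2 in all 6 classes, by at most 0.51. The classes share cells with the whole table and libraries with each other, and SFB-positive replicate 2 was the deepest library, whose part in these values was not tested.

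**Figure D3:**
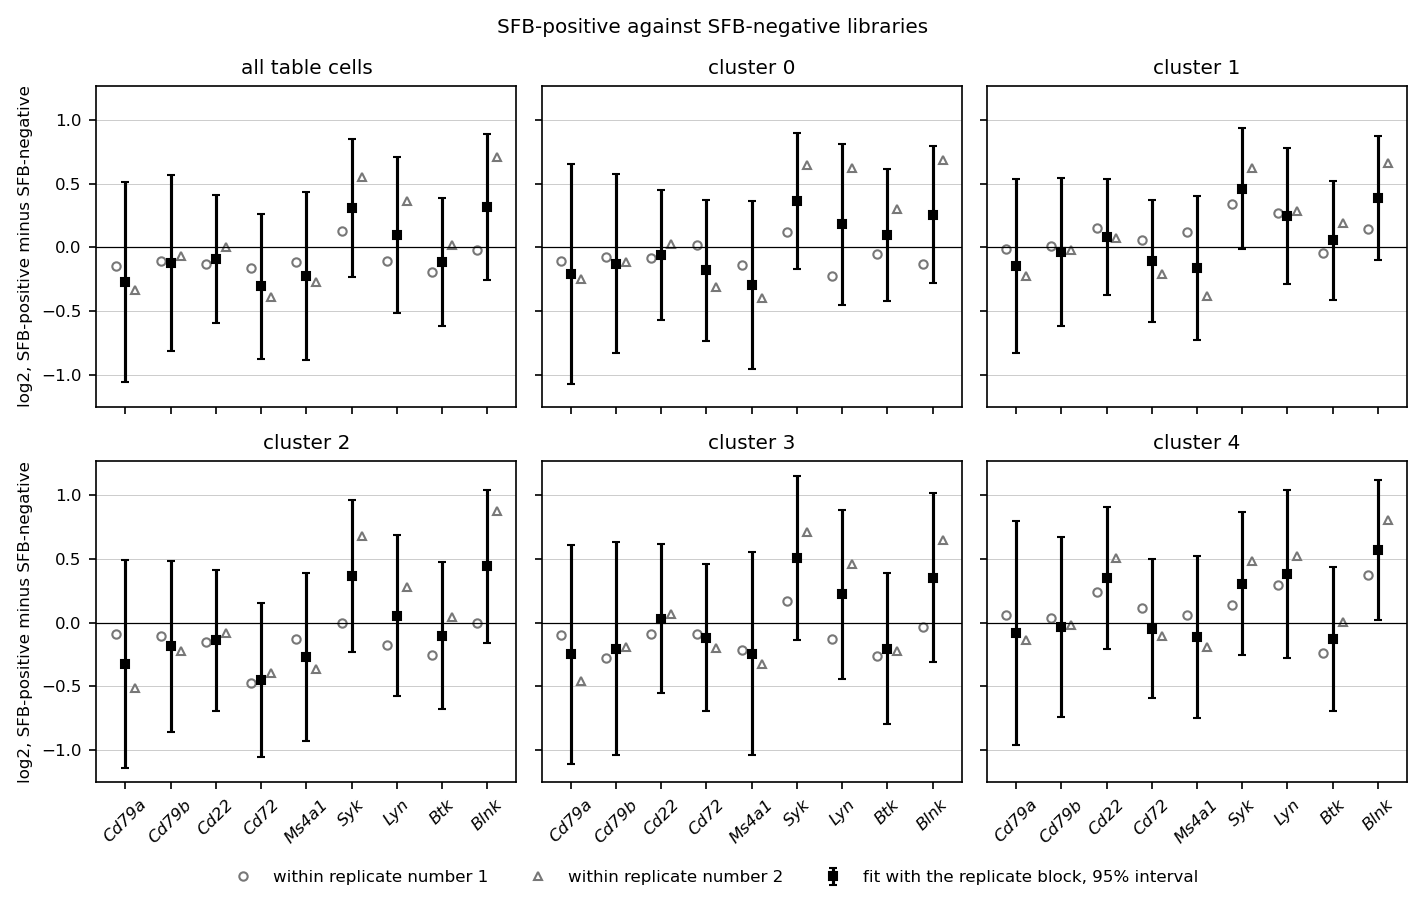
Log2 difference of SFB-positive minus SFB-negative libraries (vertical axes) for the 9 genes (horizontal axes) in all table cells and clusters 0 to 4. Squares with bars are the fit with the replicate block and its 95% interval, open circles the difference within replicate number 1 and open triangles that within replicate number 2. All intervals but that of Blnk in cluster 4, whose unadjusted p is 0.0430, cross 0.

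The SFB difference of cluster 3 was set against that of cluster 0 in an interaction test, and likewise for cluster 4. None of the 9 genes passed, where 0.0461% and 0.0703% of all genes did. A wider list of 51 receptor signalling genes (co-receptors, adaptors, kinases, phosphatases, lipid and calcium signalling) had 0 called in any class, with or without the block.

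Class-switched and unswitched cells, which differ in the antibody isotype they make, were compared within clusters. In clusters 3 and 4, cells were called switched or unswitched where at least 70% of at least 3 heavy-chain constant UMIs came from Igha, Ighe or an Ighg gene, or from Ighm and Ighd. The heavy-chain constant genes were left out of the test, and each library was a block. In both clusters the spread was largely taken from all genes together, so p-values and SEs do not measure the spread of each gene alone. In cluster 3 this gave 131 and 605 switched cells in the SFB-positive libraries and 82 and 361 in the SFB-negative libraries, against 43 and 146 unswitched cells in the SFB-positive libraries and 40 and 123 in the SFB-negative libraries. Antibody tags, counted in replicate 1 alone, gave a partial check of these classes. In SFB-negative replicate 1, 78.0% of switched cells and 30.0% of unswitched cells of cluster 3 carried an IgG1 tag, while the IgA tag was found on 40.2% of switched and 35.0% of unswitched cells. In SFB-positive replicate 1, 53.4% of switched and 23.3% of unswitched cells carried an IgA tag, while the IgG1 tag was found on 20.6% of switched and 18.6% of unswitched cells. Each library thus separated the classes by 1 of these tags. An IgD tag was found on 80.9% (SFB-positive) and 89.0% (SFB-negative) of switched cells, against 93.0% and 92.5% of unswitched cells, so presence of the IgD tag did not separate the classes.

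In the germinal-centre-like cluster 3, Cd72 fell in switched cells. Switched cells had 82.9 and 43.0 scaled CPM in the SFB-positive libraries and 105 and 47.9 in the SFB-negative libraries. Unswitched cells had 360 and 159 scaled CPM in the SFB-positive libraries and 285 and 172 in the SFB-negative libraries. The classes did not overlap, and the switched cells were lower in 4 of 4 libraries. The log2 difference was −1.92 ± 0.12 (SE, edgeR quasi-likelihood, adjusted p = 9.8e-15), at 0.264 of the unswitched level. Of all genes tested, 11.4% were called, and of the 9 genes 2 were. The other was Cd79a, with 2053 and 1182 scaled CPM in switched cells of the SFB-positive libraries and 2003 and 1619 in those of the SFB-negative libraries, against 2105 and 1549 in unswitched cells of the SFB-positive libraries and 2263 and 1765 in those of the SFB-negative libraries. Cd79a fell by 0.26 on the log2 scale (SE 0.073, adjusted p = 0.0136) and was lower in 4 of 4 libraries, but the classes overlapped. The Cd79a call was lost without SFB-positive replicate 2 (adjusted p = 0.533) and with DESeq2 (adjusted p = 0.101), and without the library block neither Cd79a (adjusted p = 1.00) nor Cd72 (−1.92, adjusted p = 0.283) passed.

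The other 7 genes did not pass in cluster 3. Btk differed by −0.33 ± 0.11 (adjusted p = 0.0532, lower in 4 of 4 libraries), Lyn by −0.22 ± 0.11, Blnk by −0.12 ± 0.11, Cd22 by −0.07 ± 0.12, Cd79b by 0.007 ± 0.078, Ms4a1 by 0.10 ± 0.082 and Syk by 0.16 ± 0.12. The 95% interval of the Cd79b difference was −0.15 to 0.16. The median log2 difference was −0.12 for the 9 genes and 0.02 for all genes tested.

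Detection gave the same direction for Cd72. At 1000 UMIs per cell, 5.43% and 3.64% of switched cluster 3 cells of the SFB-positive libraries and 6.10% and 4.16% of those of the SFB-negative libraries had a Cd72 UMI. Unswitched cells had 44.2% and 13.7% in the SFB-positive libraries and 30.0% and 11.4% in the SFB-negative libraries. T cells had 5.81% and 2.03% in the SFB-positive libraries and 5.54% and 4.04% in the SFB-negative libraries, at median depths of 1538.5, 6806.5, 1628 and 3794 UMIs before thinning. Without thinning the shares were 21.4%, 32.4%, 30.5% and 24.7% in switched cells, 72.1%, 74.0%, 67.5% and 58.5% in unswitched cells and 9.79%, 14.3%, 10.6% and 15.4% in T cells (SFB-positive replicates 1 and 2, then SFB-negative replicates 1 and 2), with switched cells at median depths of 4144, 17282, 4488 and 8251 UMIs. After thinning, the switched share was below the T cell share in SFB-positive replicate 1 and above it in the other libraries, where the exact 95% binomial intervals (counting error only) were 2.29% to 5.45%, 2.01% to 13.7% and 2.34% to 6.76%. As levels without scaling between classes, Cd72 was at 78.4 and 45.8 CPM in switched cells of the SFB-positive libraries and at 105 and 41.9 CPM in those of the SFB-negative libraries. As a share of UMIs, Cd72 in switched cluster 3 cells was thus near the level of cells that should lack it. Without thinning, the share of cells with a Cd72 UMI was above that of T cells in each library, in cells of greater depth.

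**Figure D4:**
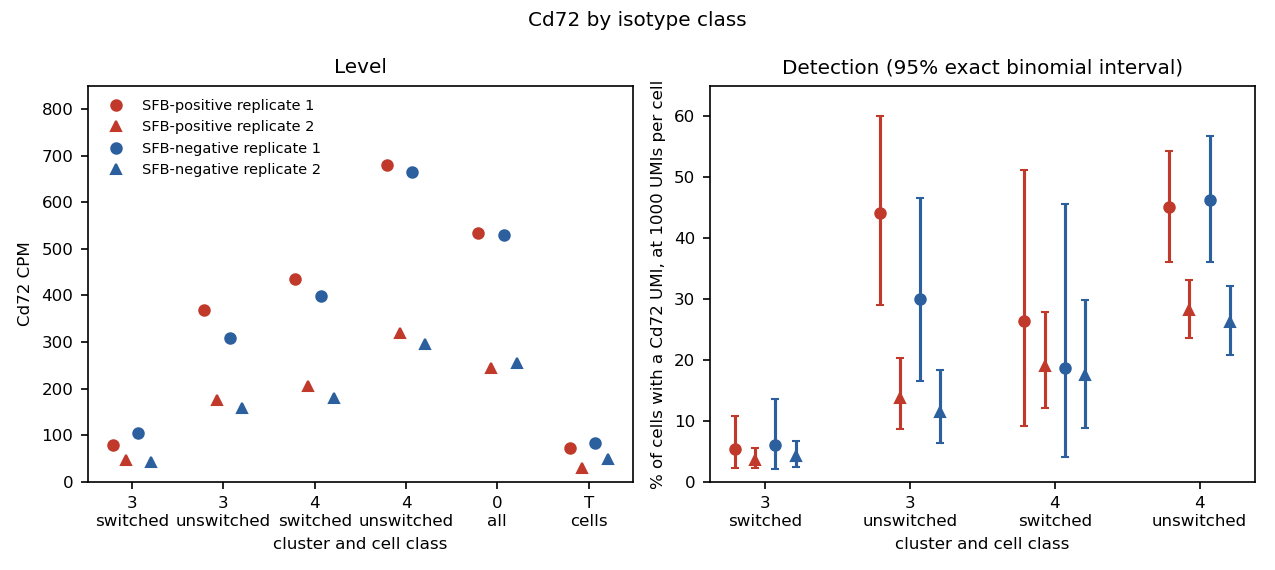
Cd72 by isotype class of clusters 3 and 4, with all cells of cluster 0 and T cells beside them: the level in CPM (left) and the share of cells with a Cd72 UMI at 1000 UMIs per cell, with exact 95% binomial intervals (right). Each point is 1 library, SFB-positive in red and SFB-negative in blue, circles for replicate 1 and triangles for replicate 2, and switched cells of cluster 3 lie at 41.9 to 105 CPM and 3.64% to 6.10% of cells.

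The fall of Cd72 was seen for each isotype that could be tested alone in cluster 3. Against unswitched cells it was −2.05 ± 0.16 for Igha cells (adjusted p = 5.6e-08), −2.01 ± 0.18 for Ighg1 cells (2.6e-26) and −1.72 ± 0.19 for Ighg2b cells (7.4e-10), each over 3 libraries with at least 20 cells per class. Of all genes, 7.48%, 8.17% and 7.06% were called, and 2 of the 9 genes in each, Cd72 and Cd79a. These fits share the unswitched cells of the libraries they have in common, so they are not independent of each other. The difference between switched and unswitched cells did not itself pass a test of a difference between SFB-positive and SFB-negative libraries for any of the 9 genes (Cd72 −0.27 ± 0.27, where 0.173% of all genes were called). The switched class differed in isotype between these groups. Igha cells numbered 53 and 295 in the SFB-positive libraries and 11 and 28 in the SFB-negative libraries. Ighg1 cells numbered 7 and 30 in the SFB-positive libraries and 53 and 273 in the SFB-negative libraries.

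Markers of other B cell states moved with the isotype class. The summed level of 6 naive-like markers was 245 and 236 CPM in switched cluster 3 cells of the SFB-positive libraries and 508 and 244 CPM in the SFB-negative libraries, against 770 and 690 CPM in unswitched cells of the SFB-positive libraries and 600 and 669 CPM in the SFB-negative libraries. The 11 germinal-centre-like markers were at 3291 and 4067 CPM in switched cells of the SFB-positive libraries and 2902 and 2923 CPM in the SFB-negative libraries, against 1746 and 2940 CPM in unswitched cells of the SFB-positive libraries and 2961 and 2245 CPM in the SFB-negative libraries. The 9 plasma-like markers were higher in switched cells of all 4 libraries, at 3455 and 1446 CPM in the SFB-positive libraries and 2826 and 1592 CPM in the SFB-negative libraries, against 1860 and 1378 CPM in unswitched cells of the SFB-positive libraries and 2207 and 1135 CPM in the SFB-negative libraries. The 7 memory-like markers were lower in all 4, at 237 and 528 CPM in switched cells of the SFB-positive libraries and 110 and 282 CPM in the SFB-negative libraries, against 305 and 606 CPM in unswitched cells of the SFB-positive libraries and 233 and 339 CPM in the SFB-negative libraries. The part of these lists in the results was not tested. When cells with a UMI of the naive markers Fcer2a or Ccr7 were left out, a setting added after the data had been seen that kept 3 libraries, Cd72 was again lower (−2.21, adjusted p = 1.1e-10). Cd79b then fell as well (−0.35 ± 0.074, adjusted p = 0.00356), and Cd79a no longer passed (−0.175, adjusted p = 0.278).

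In the memory-like cluster 4, 5 of the 9 genes fell in switched cells, where 8.25% of all genes were called. This fit used the replicate 2 libraries, because the replicate 1 libraries held 19 and 16 switched cells. It had 105 switched and 365 unswitched cells in SFB-positive replicate 2 and 57 and 244 in SFB-negative replicate 2. With so few libraries, its p-values and SEs rest mostly on a spread shared by all genes. Cd79b had 406 scaled CPM in switched cells of SFB-positive replicate 2 and 406 in those of SFB-negative replicate 2, against 772 and 799 in unswitched cells. It fell by 0.92 on the log2 scale (SE 0.10, adjusted p = 6.3e-05), about 0.529 of the unswitched level. The replicate 1 libraries, outside the fit, gave −0.88 (SFB-positive) and −0.93 (SFB-negative), so Cd79b was lower by a similar amount in 4 of 4 libraries.

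Both inhibitory co-receptors fell too. Cd22 had 45.5 and 45.1 scaled CPM in switched cells of SFB-positive and SFB-negative replicate 2, against 97.4 and 65.2 in unswitched cells, and fell by 0.94 (SE 0.21, adjusted p = 0.0126). In replicate 1 its switched values rested on 2 and 1 UMIs. Cd72 had 196 and 201 scaled CPM in switched cells, against 311 and 347 in unswitched cells, and fell by 0.69 (SE 0.13, adjusted p = 0.00466). It was lower in 4 of 4 libraries (−1.15 to −0.67), less than in cluster 3, though the difference between the clusters was not tested. Switched cells of cluster 4 with a Cd72 UMI at 1000 UMIs made up 26.3% and 19.05% in the SFB-positive libraries and 18.8% and 17.5% in the SFB-negative libraries, against 45.1% and 28.2% of unswitched cells in the SFB-positive libraries and 46.3% and 26.2% in the SFB-negative libraries, all above the T cell shares.

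Of the kinases and the adaptor, Btk and Blnk fell. Btk had 173 and 165 scaled CPM in switched cells of SFB-positive and SFB-negative replicate 2, against 279 and 278 in unswitched cells (−0.68 ± 0.14, adjusted p = 0.00646). Blnk had 507 and 279 in switched cells, against 693 and 415 in unswitched cells (−0.47 ± 0.11, adjusted p = 0.0173). Both were lower in 4 of 4 libraries, though the switched values of Btk in replicate 1 rested on 2 and 1 UMIs. Syk (−0.33 ± 0.12, adjusted p = 0.113), Cd79a (−0.18 ± 0.065, adjusted p = 0.125), Lyn (0.24 ± 0.087, adjusted p = 0.123, but 0.0266 with RLE size factors) and Ms4a1 (−0.04 ± 0.11, adjusted p = 0.883) did not pass. The median log2 difference was −0.47 for the 9 genes and −0.01 for all genes tested.

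Among Igha cells alone, 5 of the 9 genes fell in cluster 4, where 6.75% of all genes were called: Cd79b by 1.23, Cd22 by 1.08, Btk by 0.90, Cd72 by 0.79 and Blnk by 0.62 on the log2 scale. This is not a separate check. The Igha cells were 68 of the 105 (SFB-positive) and 44 of the 57 (SFB-negative) switched cells, set against the same unswitched cells. With DESeq2 in place of edgeR, of the 5 genes Cd79b alone remained called (adjusted p = 4.4e-05), and without the library block none did. The 7 memory-like markers were at 1894 and 1118 CPM in switched cells of SFB-positive and SFB-negative replicate 2, against 1016 and 715 CPM in unswitched cells. In SFB-positive and SFB-negative replicate 1 they were lower in switched cells, at 591 and 494 CPM, against 642 and 548 CPM. Their direction thus differed between replicate numbers. The 9 plasma-like markers were at 1002 and 993 CPM in switched cells of SFB-positive and SFB-negative replicate 2, against 766 and 803 CPM in unswitched cells. The germinal-centre-like markers were at 422 and 454 CPM in switched cells of the SFB-positive libraries and 285 and 415 CPM in the SFB-negative libraries, against 186 and 273 CPM in unswitched cells of the SFB-positive libraries and 125 and 233 CPM in the SFB-negative libraries. The naive-like markers were at 1060 and 1100 CPM in switched cells of SFB-positive and SFB-negative replicate 2, against 1427 and 1099 CPM in unswitched cells. The part of these markers in the results was not tested.

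**Figure D5:**
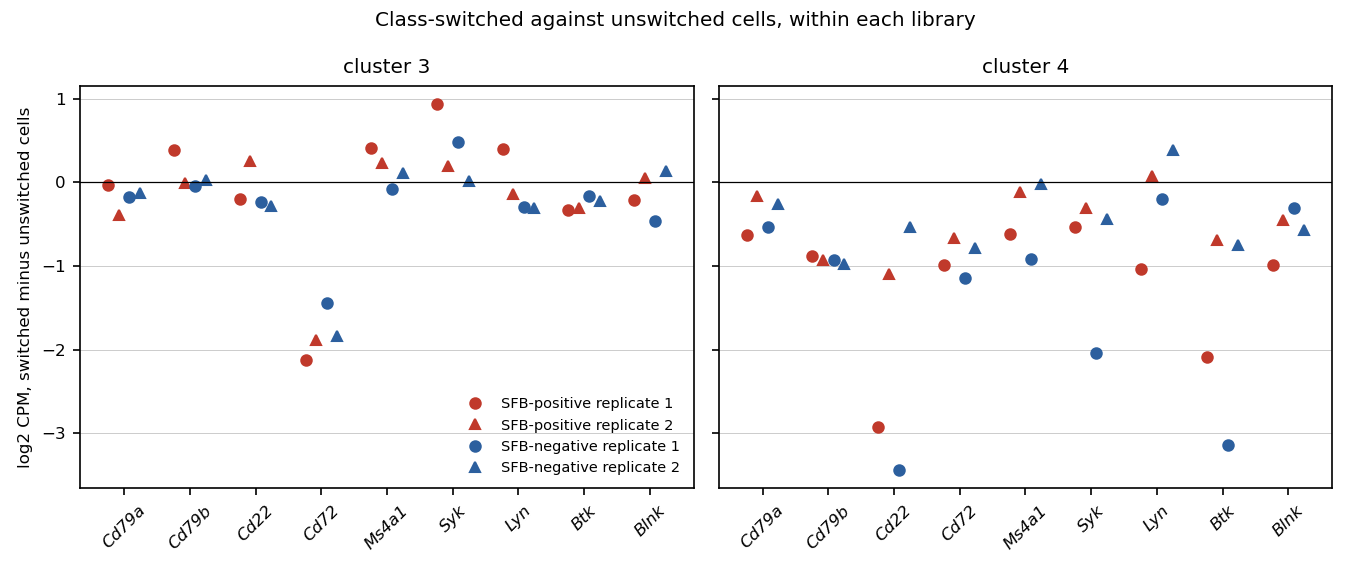
Log2 difference in scaled CPM of switched minus unswitched cells within each library (vertical axis) for the 9 genes (horizontal axis) in cluster 3 (left) and cluster 4 (right), SFB-positive in red and SFB-negative in blue, circles for replicate 1 and triangles for replicate 2. Cd72 lies between −2.12 and −1.45 in cluster 3 and Cd79b between −0.98 and −0.88 in cluster 4, and the circles of cluster 4 rest on 19 and 16 switched cells.

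The wider list of receptor signalling genes moved in both directions with class switching. In cluster 3, 3 of 46 tested genes rose and 10 fell in switched cells, where 11.4% of all genes were called (378 higher and 544 lower), and the median log2 difference of the list was −0.12. With DESeq2 1 rose and 5 fell, without cells holding the naive markers 1 rose and 3 fell, and without the library block 0 were called. The largest falls were those of Ptpn22 (−2.30 ± 0.23), a phosphatase that restrains receptor signalling, Bank1 (−1.54 ± 0.15), a B cell scaffold protein, Nfatc1 (−1.18 ± 0.14), a calcium-dependent transcription factor, and Cr2 (−1.10 ± 0.14), the complement receptor CD21. Fcgr2b (−0.66 ± 0.16), the inhibitory IgG receptor, and Prkcb (−0.58 ± 0.12), a protein kinase C, also fell, as did Cblb (−0.58 ± 0.13). Akt1, a kinase downstream of phosphoinositide 3-kinase, rose by 0.63 ± 0.13. Their adjusted p-values lay between 8.2e-10 and 0.00397.

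In cluster 4, 2 of 49 tested genes of the list rose and 11 fell, where 8.25% of all genes were called (323 higher and 394 lower), with a median of −0.12. With DESeq2 0 rose and 3 fell, and without the library block 0 rose and 2 fell. Vav3 (−3.97 ± 0.39), a guanine nucleotide exchange factor, and Cr2 (−3.77 ± 0.26) fell most. Ptpn22 (−0.72 ± 0.15), Dapp1 (−0.63 ± 0.15), an adaptor that binds phosphoinositides, Cblb (−0.61 ± 0.10), a ubiquitin ligase, and Pag1 (−0.57 ± 0.15), a membrane adaptor, fell less. Akt1 rose by 1.14 ± 0.27. Ptpn22, Bank1, Cr2 and Cblb fell and Akt1 rose in both clusters, which come from the same libraries.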

How the data were processed

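The authors deposited whole-number UMI count matrices for 4 droplet libraries and a table of 22569 cells with a cluster number. No source read here states how they filtered and clustered these cells. The table also holds percent mitochondrial UMIs and layout scores made by the authors, neither of which was used. Alignment was to mm10 with Cell Ranger 5.0.1, per the submitters' processing notes, whereas per the file headers the version was 6.0.0 in replicate 1 and 7.0.0 in replicate 2. The 15 antibody tags of replicate 1 were kept out of gene totals. The deposited counts have no doublet call, and none was added.

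The 9 genes and all gene and marker lists were chosen with earlier results of these data known. Within each library the UMIs of a class of cells were added up, and classes with totals under 10000 UMIs were left out of levels. edgeR 4.0.16 in R 4.3.3 (TMM, filterByExpr, robust quasi-likelihood test, Benjamini-Hochberg adjustment over all genes, limit 0.05) compared SFB groups within all table cells and each cluster with at least 20 cells in every library, with no replicate term, and switched with unswitched cells with library as a block, without the 8 heavy-chain constant genes. Isotype fits used libraries with at least 20 cells of each class. Scaled CPM are CPM on TMM library sizes. T cells outside the table had at least 3 UMIs of Cd3d, Cd3e, Cd3g, Trac, Trbc1 or Trbc2 and under 10% mitochondrial UMIs. Genes alike were the 3 highest correlations of log2(CPM + 10) centred by library, over genes with a mean of at least 50 CPM. Named list genes were the 8 with the largest change among those called, of which 1 is not reported here. Alternatives were DESeq2 1.42.0, RLE size factors, no filter, totals without 393 antibody chain genes, cells of at most 2900 genes, thinning to 500 UMIs, at least 6 constant UMIs and leaving out each library. The procedures were tested on simulated counts first. Intervals and floors (3 counts) cover counting error only.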

Additional observations from a re-analysis of the deposited data

Results flagged for a closer look

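Among 18 sets of 4 within-library differences between switched and unswitched cells, 3 held a library far from the other 3, where chance gives about 1 in 20. For Cd22 in cluster 3, SFB-positive replicate 2 stood at 0.2552 on the log2 scale, while the other libraries lay between −0.28 and −0.20. For Cd79b in cluster 3, SFB-positive replicate 1 stood at 0.3894, while the others lay between −0.05 and 0.02. For Syk in cluster 4, SFB-negative replicate 1 stood at −2.038, a library with 16 switched cells there that was outside the fit, while the others lay between −0.54 and −0.31.

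Antibody tags of replicate 1, used above only for the isotype classes, gave means over isotype-control tags in cluster 0, but T cells had similar means for IgD and are given beside them. The IgD tag had a mean of 11.51 UMIs per cell in SFB-positive replicate 1 and 14.87 in SFB-negative replicate 1 (medians of 5 and 8), against 11.7 and 15.1 in T cells (medians of 1 and 1). The IgM tag had 0.5388 in SFB-positive replicate 1 and 0.5904 in SFB-negative replicate 1 (medians of 0), against 1.28 and 0.405 in T cells. These means do not show a signal particular to the cluster 0 cells, but the IgD medians were higher there than in T cells. The lower quartiles of the IgD tag in cluster 0 were 3 (SFB-positive) and 5 (SFB-negative). Its upper quartiles in T cells were 2 and 3. The 3 isotype-control tags had 0.327, 0.375 and 0.103 in SFB-positive replicate 1 and 0.337, 0.475 and 0.0783 in SFB-negative replicate 1.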

How the results depend on the processing

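No SFB test of the 9 genes passed under any alternative run, and 2 libraries per group limit what could be seen. Of the isotype results, the Cd72 fall in cluster 3 passed in all settings but that without the library block. Same-numbered libraries deviated together (correlations of 0.750 to 0.880 over genes), which comes from the data and not from the labels. The replicate block moved the number of genes called for SFB from 0 to 443 in all table cells and changed no call of the 9 genes. Switched results in cluster 4 rest on 2 libraries, so leaving out a library was not run there. Single Ighg isotypes were not run there either, nor was the setting without cells holding naive markers. In replicate 2, 4 of 105 (SFB-positive) and 4 of 57 (SFB-negative) switched cells of cluster 4 lacked a UMI of Fcer2a or Ccr7. Of its unswitched cells, 16 of 365 (SFB-positive) and 33 of 244 (SFB-negative) lacked it. The switched cells left were too few for that setting, and most cells of both classes held a naive marker. The causes of the changes below were not tested.

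In the SFB comparison of cluster 3, Cd22 turned to −0.00401 with DESeq2, −0.00535 with RLE size factors and −0.0145 with no filter. Leaving out 1 library gave −0.62 to 0.0901 for Cd79a, −0.74 to 0.33 for Cd79b, −0.16 to 0.15 for Cd22, −0.91 to 0.63 for Cd72, −0.59 to 0.0373 for Ms4a1, −0.60 to 1.36 for Syk, −1.16 to 1.40 for Lyn, −0.16 to 0.81 for Blnk, and −0.48 to 1.40 for Syk in cluster 1.

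In cluster 3, 2 of the 9 genes were called with isotype, against 1 with DESeq2, 1 with no filter and 0 without the library block (no replicate block), and 1 to 2 when a library was left out (1 without SFB-positive replicate 2). Over all genes DESeq2 called 126 higher and 239 lower, where edgeR called 378 and 544. Cd79a was −0.26 with DESeq2, −0.19 with no filter, −0.26 without the library block, −0.175 without cells holding a naive marker, and −0.31 to −0.20 when a library was left out. Cd72 was −1.92 without the block. Cd79b was −0.0186 at 6 constant UMIs, −0.00099 without the block, −0.35 without cells holding a naive marker, and −0.0731 to 0.0815 when a library was left out. Without cells holding a naive marker Cd22 was 0.13 and Ms4a1 −0.12.

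In cluster 4, 5 genes were called, against 1 with DESeq2 and 0 without the library block. RLE size factors called 5 lower and Lyn higher (0.26, adjusted p = 0.0266), and no filter called 6 lower. Values with DESeq2 were −0.82 for Cd22, −0.67 for Cd72, −0.66 for Btk and −0.45 for Blnk. Without the block they were −0.92 for Cd79b, −0.83 for Cd22, −0.70 for Cd72, −0.69 for Btk and −0.46 for Blnk. Ms4a1 was 0.0217 at 6 constant UMIs. With all 4 libraries 6 genes fell, Cd79a (−0.26) among them. Mean levels per cluster were also taken with totals without antibody chain genes and from cells of at most 2900 genes. By these, 8 levels moved by more than the spread between libraries and 118 did not. At 500 in place of 1000 UMIs per cell, 46 of 63 mean shares moved by more than the spread between libraries, and cluster 3 cells with both CD79 genes made up 37.4% and 20.1% in the SFB-positive libraries and 49.3% and 22.3% in the SFB-negative libraries.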
